A study of Mus musculus with 40 samples.

Results

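Saracatinib, an oral inhibitor of Src family kinases, was given to mice with lung fibrosis made in 1 of 2 ways, and the data below compare its effect on lung RNA between the 2 models. The libraries used are those of injured lungs, chosen by their labels for stimulation and inhibitor. They number 20 of the 40 in the series, 5 in each of 4 groups. All mice were C57BL/6, of both sexes per the labels, and the left lung was taken on day 28. In the bleomycin groups, bleomycin at 1.5 U/kg had been placed in the airway through the mouth. The Adenovirus TGF-beta groups (Ad-TGFb below) had received through the nose an adenovirus in which a CMV promoter drives mouse TGF-beta 1. Each model had a vehicle group and a group given saracatinib at 20 mg/kg once daily by gavage from day 10, and the labels give the last dose as day 27 in one place and day 28 in another. The label for time on drug is 18 days in all 20 libraries. The other 20 libraries are uninjured lungs of the same 2 experiments, which got saline or an empty vector and then vehicle or saracatinib. They entered the estimate of the spread and a control comparison near the end.

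The 2 injuries differ in how they start. Bleomycin breaks DNA, kills epithelial and endothelial cells and sets off inflammation, after which fibroblasts multiply, turn into matrix-producing cells and lay down scar. In the adenoviral model, TGF-beta, the main cytokine that drives fibroblasts to make matrix, is supplied directly by the vector to cells the virus reaches. Src kinases sit downstream of integrins and growth factor receptors and take part in focal adhesion signalling, fibroblast activation and vascular leak, which is the background for testing a Src inhibitor here.

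The quantity compared is a difference of 2 effects. Within each model the saracatinib effect is the log2 fold change of saracatinib over vehicle lungs. The difference is the effect in bleomycin lungs minus the effect in Ad-TGFb lungs, on the log2 scale. A value below 0 means that the gene fell more, or rose less, with saracatinib in bleomycin lungs than in Ad-TGFb lungs. An offset between the 2 experiments that touches all libraries of one equally, such as a difference in handling, drops out of this difference, while it does not drop out of levels set side by side. Levels are in CPM, the gene's share of the library's counts on a fixed total, scaled for composition. Levels are given in the order of library number, which carries no meaning. Adjusted p-values are those of edgeR (quasi-likelihood) with Benjamini-Hochberg adjustment over the 19529 genes tested, and a gene is called when that value is under 0.05. Values after ± are standard errors of the log2 value. The samples are whole lung tissue, so fewer cells of a type and less RNA per cell cannot be told apart.

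Total counts of the 20 injured libraries ran from 10177948 to 17336972. The first principal component, with 37.0% of their variance, separated the models, and the second held 15.4%. Library 3 of bleomycin with vehicle stood apart from its group, with a score of 63.8 on the second component, where the other 19 libraries lay from -46.8 to 25.0. It is high for most of the fibrosis genes below, so the main results are also given without it. Xist had at most 12 counts in any of the 40 libraries, although the labels speak of both sexes. Surfactant protein C (Sftpc, 2133 to 3366 CPM in bleomycin vehicle and 2735 to 3238 CPM in Ad-TGFb vehicle lungs) and Ager of alveolar type 1 cells (907 to 1172 and 675 to 815 CPM) were abundant in both models.

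The saracatinib effect differed between the models for 481 genes, 2.46% of those tested. In 205 genes (1.05%) the difference was above 0 and in 276 (1.41%) below 0. Within models, saracatinib changed 3662 genes in bleomycin lungs (18.8%), 1464 higher (7.5%) and 2198 lower (11.3%). In Ad-TGFb lungs it changed 10 genes (0.0512%), 5 higher (0.0256%) and 5 lower (0.0256%), and 1441 genes had an unadjusted p under 0.05, against 6107 in bleomycin lungs. Of the 481 genes, 447 were called in bleomycin lungs only, 3 in Ad-TGFb lungs only, 1 in both and 30 in neither. Among the genes with a difference below 0, 265 fell in bleomycin lungs, and among those above 0, 183 rose there. The absolute saracatinib effect was larger in bleomycin lungs for 450 of the 481. Its median over the called genes was 0.70 in bleomycin and 0.11 in Ad-TGFb lungs, beside 0.19 and 0.11 over all genes tested, and the choice of called genes itself favours a gap. Without bleomycin vehicle library 3 the number of called genes was 106, and without saracatinib library 2 or 3 of bleomycin it was 148 or 161. It was 803 without saracatinib library 1 and 743 without vehicle library 1 of bleomycin. Counts of 182 to 310 came without bleomycin vehicle library 2, bleomycin saracatinib library 5, Ad-TGFb vehicle library 1, 3 or 4, or Ad-TGFb saracatinib library 1, 3 or 5.

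**Figure D1:**
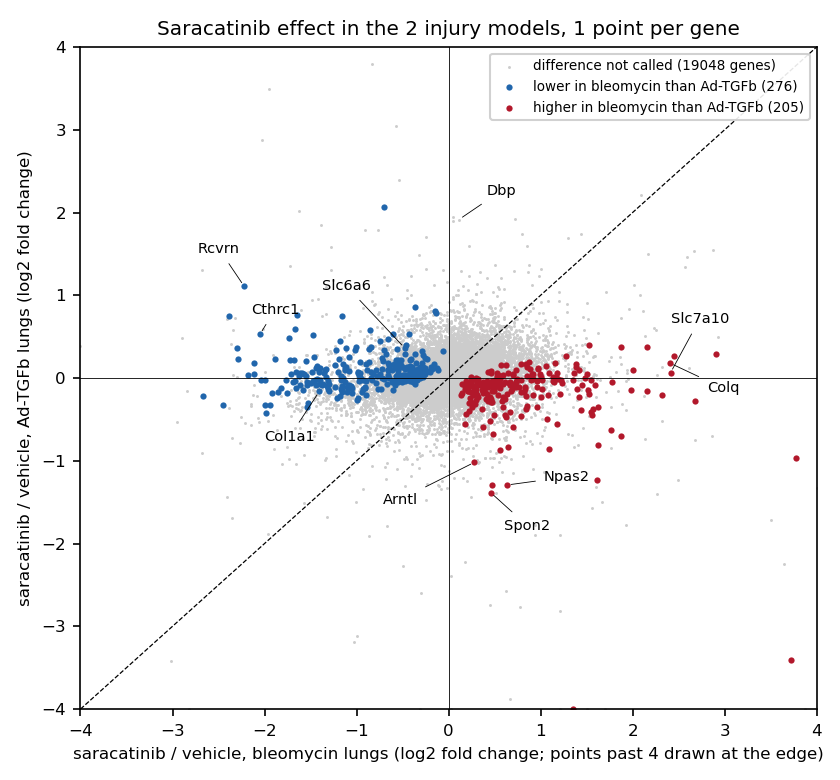
Saracatinib effect in bleomycin lungs (x axis) against that in Ad-TGFb lungs (y axis), both as log2 fold change over vehicle, with 1 point for each of the 19529 genes tested and the dashed line marking equal effects; 10 genes past 4 on either axis are drawn at the edge. The 276 blue genes (lower difference) and 205 red genes (higher difference) spread mainly along the bleomycin axis, while Slc6a6, Spon2, Arntl and Npas2 also lie off the horizontal.

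Across genes the 2 saracatinib effects, which share no library, went together weakly. Pearson's r was 0.14 and Spearman's rho 0.27 over 19529 genes, a description only, since genes are not independent. Of the 3662 genes called in bleomycin lungs, 2610 (71.3%) had the same sign in Ad-TGFb lungs, beside 61.3% of all genes tested. The difference was called for 448 of them (12.2%). For the other 3214 a difference was not shown, and in 1016 of the 3662 the 95% interval of the difference lay within 0.5 of 0 on the log2 scale, beside 7306 of the 19529 genes tested.

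The drug's target and the injury's ligand come first among the genes chosen for naming. Gene positions here are on GRCm38, from GENCODE M21. Src, the kinase saracatinib inhibits (chr2:157418444-157471862), stood at 108, 97.2, 115, 111 and 116 CPM with bleomycin and vehicle and at 106, 105, 97.7, 106 and 101 CPM with bleomycin and saracatinib. In Ad-TGFb lungs it was at 91.8, 89, 81.2, 89.2 and 86.8 CPM with vehicle and 83.5, 83.8, 96.5, 89.6 and 90.1 CPM with saracatinib. Vehicle and saracatinib lungs overlapped in both models, and the difference was -0.10 ± 0.09 with an interval from -0.28 to 0.08. RNA does not report on kinase activity. Tgfb1 (chr7:25687002-25705077), the gene the vector carries, was at 136 to 275 CPM in Ad-TGFb vehicle and 139 to 193 CPM in Ad-TGFb saracatinib lungs, against 77.2 to 126 and 66.6 to 82.8 CPM in the bleomycin groups. Reads from the vector and from the mouse's own gene cannot be told apart in these counts. Its saracatinib effect did not pass the test in either model (-0.31 and -0.49), nor did the difference, 0.18 with an interval from -0.26 to 0.61.

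Genes of activated fibroblasts, the matrix-producing cells of scar, fell in bleomycin lungs, while 1 passed the test in Ad-TGFb lungs. Of 20 listed markers, all tested, 6 had a called difference below 0 and 1 above 0. In bleomycin lungs 16 of the 20 fell and none rose, and in Ad-TGFb lungs 1 fell. Over all genes tested, 2.46% had a called difference, 11.3% fell and 7.5% rose in bleomycin lungs, and 0.0512% were called in Ad-TGFb lungs. Counts in the lists below stand beside these same shares. The median effect was -1.38 in bleomycin and -0.18 in Ad-TGFb lungs, and the median difference was -1.09, beside 0.00 over all genes tested. In uninjured lungs the median of the same difference was -0.40. Without bleomycin vehicle library 3, 4 of the 20 were called below 0.

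Cthrc1 (chr15:39076932-39087121), which encodes a secreted protein that marks the collagen-making fibroblasts of scar, had the clearest difference of the list. It was at 10.3, 14.5, 20.3, 8.58 and 9.58 CPM with bleomycin and vehicle, and at 4.94, 2.24, 2.29, 4.01 and 1.78 CPM with bleomycin and saracatinib. The Ad-TGFb lungs had 1.92, 2, 1.45, 1.84 and 1.63 CPM with vehicle and 2.82, 2.31, 2.29, 2.44 and 2.92 CPM with saracatinib. Every bleomycin lung given saracatinib lay below every one given vehicle, while in Ad-TGFb lungs all 5 saracatinib lungs lay above all 5 vehicle lungs. Cthrc1 is among the genes picked by the size of their difference, so this separation is no separate support for it. Here and below, how many of all genes tested separate as fully was not counted. Cthrc1 fell with saracatinib in bleomycin lungs (-2.05), the effect in Ad-TGFb lungs was 0.53 and not called (adjusted p = 0.681), and the difference was -2.58 ± 0.35 (adjusted p = 0.000145). Without bleomycin vehicle library 3 the difference was -2.34. Against uninjured vehicle lungs of the same experiment, the log2 difference of Cthrc1 was 2.80 in bleomycin vehicle lungs and -0.04 in Ad-TGFb vehicle lungs.

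Thbs2, a matricellular glycoprotein (chr17:14665500-14694235), showed the same order. Bleomycin vehicle lungs had 32.3, 91.3, 111, 30.3 and 37.5 CPM and bleomycin saracatinib lungs 23.3, 6.11, 5.62, 18.4 and 8.41 CPM. Ad-TGFb lungs had 3.5 to 6.21 CPM with vehicle and 4.75 to 7.56 CPM with saracatinib, with overlap. The difference was -2.52 ± 0.53 (adjusted p = 0.0132), or -2.18 without bleomycin vehicle library 3.

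A pair of secreted regulators of the TGF-beta family behaved alike. Fst (chr13:114452290-114458951) encodes follistatin, which binds and blocks activins, and Inhba (chr13:16011851-16031621) encodes the activin A subunit that follistatin binds. Fst was at 17.6, 35.1, 78.2, 20.4 and 19.7 CPM in bleomycin vehicle and 9.01, 4.77, 6.17, 11.6 and 6.07 CPM in bleomycin saracatinib lungs, and at 2.99 to 3.77 and 2.67 to 4.26 CPM in the Ad-TGFb groups. Inhba was at 13.4, 29, 41.6, 13.6 and 18.5 and 10.2, 2.53, 4.67, 7 and 3.96 CPM in the bleomycin groups and at 3.58 to 6.06 and 3.6 to 5.89 CPM in the Ad-TGFb groups. Vehicle and saracatinib lungs did not overlap in bleomycin and did in Ad-TGFb for both genes. Differences were -2.22 ± 0.48 for Fst (adjusted p = 0.0132) and -2.01 ± 0.47 for Inhba (adjusted p = 0.0198). Without bleomycin vehicle library 3 the Fst call stayed (-1.66) and that of Inhba was lost (-1.70, adjusted p = 0.0647).

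The 2 other markers called below 0 were Adam12, a membrane metalloprotease (-1.58), and Sfrp1, a secreted Wnt inhibitor (-1.44), whose call was lost without that library (adjusted p = 0.0613). Spon2 was the marker called above 0 and is described with the genes that moved in Ad-TGFb lungs. Periostin (Postn), often used as a scar marker, had a difference of -0.21 with an interval from -0.79 to 0.37, and the bleomycin effect was -0.39 and not called.

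**Figure D2:**
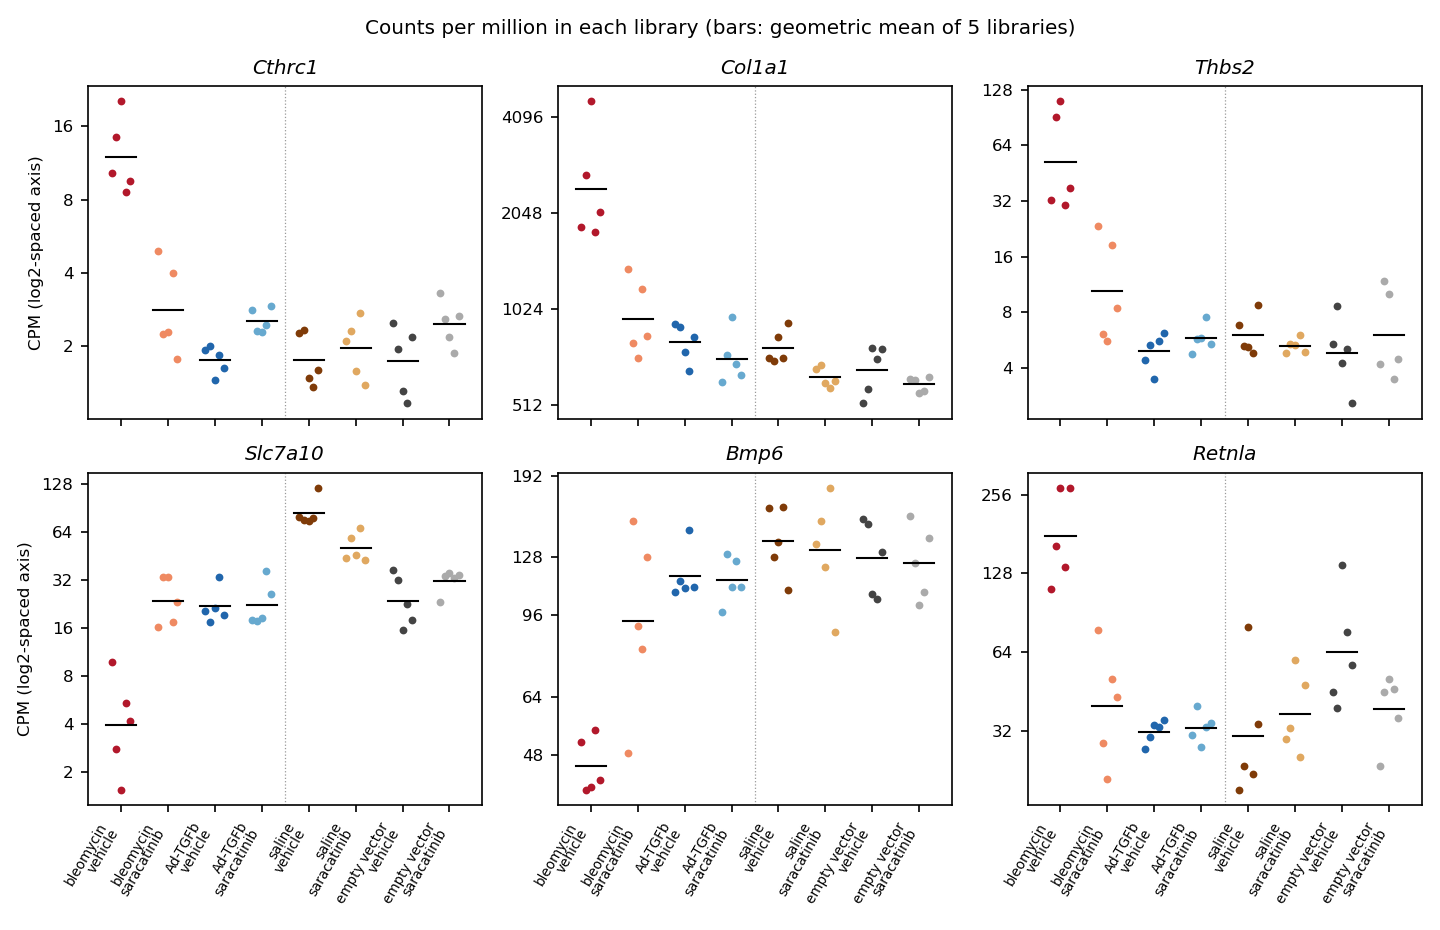
CPM of 6 genes in each of the 40 libraries (log2-spaced y axis, points are libraries, bars are geometric means of 5, and the dotted line divides injured from uninjured groups). Cthrc1, Col1a1, Thbs2 and Retnla are highest in bleomycin vehicle lungs and Slc7a10 and Bmp6 lowest there, while the 2 Ad-TGFb groups lie close to each other.

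Collagen genes followed the fibroblast markers. Of 35 collagens and collagen-processing enzymes, 10 had a called difference below 0 and none above. In bleomycin lungs 26 fell and none rose, and in Ad-TGFb lungs none was called either way. The median effect was -0.58 in bleomycin and -0.21 in Ad-TGFb lungs. Col1a1 (chr11:94936224-94953042), the main chain of type I collagen, was at 1839, 2683, 4578, 1778 and 2062 CPM with bleomycin and vehicle and 1358, 798, 715, 1177 and 842 CPM with bleomycin and saracatinib. The Ad-TGFb levels were 917, 893, 748, 650.4 and 832 CPM with vehicle and 602, 734, 961, 687 and 633 CPM with saracatinib. The bleomycin groups did not overlap and the Ad-TGFb groups did. The effect was -1.40 ± 0.19 in bleomycin lungs and -0.16 ± 0.18 in Ad-TGFb lungs, a difference of -1.24 ± 0.26 (adjusted p = 0.0129), or -0.94 without bleomycin vehicle library 3. In vehicle lungs Col1a1 was 1.74 above the uninjured level in the bleomycin experiment and 0.28 in the Ad-TGFb experiment.

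Col1a2, which pairs with Col1a1, had a difference of -1.0, and Col5a1 and Col5a2, which start type I fibrils, had -0.98 and -0.96. Col7a1 of anchoring fibrils (-1.25) and Col8a1 (-0.95) were also called. Among enzymes the called members were Loxl2 (-1.22) and Loxl3 (-0.81), which cross-link collagen, P4ha3 (-1.56), a prolyl hydroxylase subunit, and Bmp1 (-0.39), which trims procollagen. Col3a1, the chain of type III collagen, fell in bleomycin lungs (-0.76), yet its difference of -0.55 was not called (adjusted p = 0.109, interval from -0.94 to -0.17). The number called below 0 in the list was 4 without bleomycin vehicle library 3.

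Other matrix genes went the same way in part. In the list of 34 matrix glycoproteins and proteoglycans, 5 differences were below 0 and 2 above, and 24 members fell and 1 rose in bleomycin lungs. Called below 0 beside Thbs2 were Fbln2 (-1.72), a fibulin of elastic matrix, Fmod (-1.63), a collagen-binding proteoglycan, Tgfbi (-0.94), a TGF-beta-induced adhesion protein, and Has2 (-2.12), which makes hyaluronan. Has2 lost its call in 16 of the 20 fits that each left out 1 injured library. Fbln1 (0.70) and Spon2 were above 0. Fibronectin (Fn1) was high in bleomycin vehicle lungs (3028 to 8097 CPM) and fell with saracatinib there (-1.32), but its difference of -0.91 was not called (adjusted p = 0.159, interval from -1.61 to -0.20).

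Of 30 tested proteases and inhibitors of matrix, 5 had a difference below 0 and none above. These were the collagenase activator Mmp14 (-0.80), Adam12, Adamts12 (-1.23), the protease inhibitor Serpine2 (-0.86) and Ctsk (-1.04), a collagen-degrading cathepsin. In bleomycin lungs 14 members fell and 1 rose. Timp1, the inhibitor most used as a fibrosis readout, fell by 2.15 in bleomycin lungs, and its difference of -1.58 missed the threshold (adjusted p = 0.0625). Without bleomycin vehicle library 3, the called members below 0 were 1 of the proteases and 2 of the glycoproteins.

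The wider TGF-beta list, which holds ligands, receptors, SMADs, inhibitors and targets, had 4 of 31 members called below 0 and none above. These were Inhba, Fst, Tgfbi and Pmepa1, a target that dampens TGF-beta signalling (-0.73). In bleomycin lungs 15 members fell and 2 rose, and in Ad-TGFb lungs none was called. The median difference was -0.19. The number called was 1 when bleomycin vehicle library 3 was left out. Of 25 genes for Src family kinases and focal adhesions, none had a called difference, 3 fell and 1 rose in bleomycin lungs, and the median difference was 0.06. Of all genes tested, 2.46% had a called difference and 18.8% were called in bleomycin lungs, beside 16% of this list. These counts are therefore near those of genes at large. The lowest p of that list was that of Abl2, an Abl kinase (-0.28, interval from -0.46 to -0.10). Acta2, the smooth muscle actin of myofibroblasts and airway muscle, had a difference of -0.17 (interval from -0.93 to 0.59) and no called effect in either model.

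Alveolar fibroblasts, the resting lipid-handling fibroblasts of alveolar walls, went the other way. In bleomycin lungs 10 of the 15 listed markers rose and none fell, and no marker was called in Ad-TGFb lungs. All 15 differences were above 0 with a median of 0.53, and 1 was called (6.67%, beside 2.46% of all genes tested). That gene was Slc7a10 (chr7:35186385-35201114), a neutral amino acid transporter. It was at 9.8, 2.77, 1.53, 5.42 and 4.19 CPM in bleomycin vehicle lungs and 16.3, 33.5, 33.3, 17.5 and 23.3 CPM in bleomycin saracatinib lungs. In Ad-TGFb lungs it was at 20.5, 17.5, 21.2, 33.5 and 19.4 CPM with vehicle and 17.9, 17.6, 18.6, 36.2 and 26.1 CPM with saracatinib. The bleomycin groups did not overlap, and bleomycin saracatinib lungs overlapped both Ad-TGFb groups. The difference was 2.35 ± 0.42 (adjusted p = 0.0064), or 2.13 without bleomycin vehicle library 3. Saline vehicle lungs stood higher than all of these, at 75.3 to 121 CPM, and empty vector vehicle lungs at 15.4 to 37 CPM.

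The 12 called genes with the largest differences above 0 included Colq, Lrat, Kcna2 and Adamts17. Colq (chr14:31523082-31591343), the collagen-like tail that anchors acetylcholinesterase, was at 4.82, 2.89, 0.803, 3.79 and 1.77 CPM with bleomycin and vehicle and 9.25, 22.8, 16.3, 7.62 and 17.9 CPM with bleomycin and saracatinib. The Ad-TGFb groups ran from 6.23 to 24 CPM with vehicle and from 9.58 to 19.2 CPM with saracatinib. The difference was 2.22 ± 0.46 (adjusted p = 0.0129). Lrat, which stores retinol as esters, had a difference of 2.00. The potassium channel gene Kcna2 had 1.64, the secreted protease gene Adamts17 1.73, the GABA receptor subunit gene Gabrb1 1.67 and the lactate transporter gene Slc5a12 1.91. Tmem121b (1.78) and Fam71f2 (1.72) were also in this set. Slc5a12 lost its call in 15 of the 20 fits without 1 library, Gabrb1 and Tmem121b in 6 each, and Colq, Lrat, Kcna2, Adamts17 and Fam71f2 in none. In vehicle lungs these genes were below the uninjured level in bleomycin, from -1.59 for Fam71f2 to -3.74 for Colq on the log2 scale.

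Capillary endothelial markers leaned the same way. All 16 had a difference above 0 with a median of 0.53. In bleomycin lungs 5 rose (31.25%, beside 7.5% of all genes tested). The difference was called for 1 (6.25%, beside 2.46% of all genes tested), a count that says little in a list this short. Bmp6 (chr13:38345107-38500302), a BMP ligand made by endothelium, was at 51.2, 40.3, 41, 54.2 and 42.4 CPM with bleomycin and vehicle and 48.5, 153, 90.8, 81.3 and 128 CPM with bleomycin and saracatinib, where library 1 stayed inside the vehicle range. It was at 108 to 147 CPM in Ad-TGFb vehicle and 97.6 to 129.9 CPM in Ad-TGFb saracatinib lungs. The difference was 1.17 ± 0.28 (adjusted p = 0.0225) and was not called without bleomycin vehicle library 3 (adjusted p = 0.0593) or without bleomycin saracatinib library 2. In the Wnt and BMP list of 26 genes, 3 differences were above 0 and 3 below. Beside Bmp6, those above were the BMP antagonist Chrdl1 (1.11) and the ligand Bmp3 (0.56). Those below were the ligand Wnt5a (-0.79) and the Wnt regulators Sfrp1 and Dkk2 (-1.90), the last lost in 16 of 20 fits without 1 library. Of the 6 genes none stayed called without bleomycin vehicle library 3.

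Among 15 smooth muscle and pericyte markers the difference was above 0 for 7 and below 0 for 8, with a median of -0.01. The only called member (6.67%, beside 2.46% of all genes tested) was the pericyte gene Rgs5. It was at 18.5 to 63.4 CPM in bleomycin vehicle and 5.74 to 15.7 CPM in bleomycin saracatinib lungs, against 8.79 to 14.3 and 8.61 to 13 CPM in Ad-TGFb lungs, a difference of -1.98 (adjusted p = 0.0293). The call was lost in 8 of 20 fits without 1 library, among them the fit without bleomycin vehicle library 3 (adjusted p = 0.0881).

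Macrophage markers of scar fell with saracatinib in bleomycin lungs and were not called in Ad-TGFb lungs. Of 24 markers of monocyte-derived and scar macrophages, 17 fell in bleomycin lungs and none was called in Ad-TGFb lungs. The difference was below 0 for 23 of the 24 and called for 6, which were Arg1, Mmp14, Cd63, Igf1, Mrc1 and Ctsk. Arg1, the arginase of alternatively activated macrophages, was at 3.21, 10.6, 22.9, 4.16 and 6.89 CPM in bleomycin vehicle and 2.12, 0.373, 1.35, 2.28 and 1.38 CPM in bleomycin saracatinib lungs, and at 0.641 to 1.35 and 0.487 to 1.23 CPM in the Ad-TGFb groups. Its difference of -2.45 ± 0.66 (adjusted p = 0.0404) rests on low counts and was lost in 12 of 20 fits without 1 library. Igf1, a growth factor made by scar macrophages and fibroblasts, had -1.19, the mannose receptor gene Mrc1 -0.94 and the lysosomal membrane gene Cd63 -0.79. The number called was 1 of the 24 without bleomycin vehicle library 3. Osteopontin (Spp1) fell in bleomycin lungs (-1.19), with an uncalled difference of -1.12 (interval from -2.21 to -0.03). Mmp12, the macrophage elastase, had a difference of 0.06 (interval from -0.75 to 0.87), and its sign changed with the library left out.

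Retnla (chr16:48842551-48844461), a secreted product of alternatively activated macrophages and of airway epithelium, was among the 12 largest differences below 0. It was at 112, 162, 272, 135 and 271 CPM in bleomycin vehicle lungs and 77.5, 28.7, 20.9, 50.5 and 43 CPM in bleomycin saracatinib lungs. The Ad-TGFb groups ran from 27.3 to 35.2 CPM with vehicle and from 27.8 to 39.7 CPM with saracatinib. The difference was -2.16 ± 0.50 (adjusted p = 0.0198). It missed the threshold without bleomycin vehicle library 3 (adjusted p = 0.0567). Among 14 alveolar macrophage markers, Plet1 was the 1 called in the difference (-0.89). In bleomycin lungs 3 fell and none rose (21.4%, beside 18.8% of all genes tested called there).

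Epithelial lists gave 1 call in all. Cldn4 (chr5:134945119-134946934), a tight junction claudin that rises in the transitional state between alveolar type 2 and type 1 cells, was at 12.1, 23.7, 34.8, 20.6 and 23.6 CPM with bleomycin and vehicle and 11.2, 3.13, 5.14, 9.59 and 7.2 CPM with bleomycin and saracatinib. It was at 3.32, 3.93, 3.5, 2.9 and 4.29 CPM in Ad-TGFb vehicle and 4.93, 6.63, 6.47, 4.5 and 4.55 CPM in Ad-TGFb saracatinib lungs. Bleomycin lungs with saracatinib were all below those with vehicle, and Ad-TGFb lungs with saracatinib all above those with vehicle, though the latter effect, 0.59, was not called (adjusted p = 0.753). The difference was -2.25 ± 0.47 (adjusted p = 0.0129). Of the 19 transitional markers 9 fell in bleomycin lungs, with a median difference of -0.34. None of the 12 type 2 or the 12 type 1 markers had a called difference. As 2.46% of all genes tested had one, no call in lists this short says little. Sftpc and Ager had differences of 0.11 (interval from -0.46 to 0.68) and 0.27 (interval from -0.42 to 0.96).

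Cell cycle genes had the lowest median difference of the pathway lists. Of 38 tested, 34 fell in bleomycin lungs and none rose, with a median of -1.32. None was called in Ad-TGFb lungs, where the median was -0.15. The difference was called below 0 for 10 and its median was -1.13, with 37 of 38 below 0. The mitotic spindle gene Tpx2 was at 8.2, 20, 30.9, 12.2 and 14.5 CPM in bleomycin vehicle and 7.68, 3.65, 3.4, 5.35 and 4.21 CPM in bleomycin saracatinib lungs, and at 10.3, 11.4, 8.53, 9.76 and 11.5 and 10.2, 5.96, 13.2, 7.56 and 10.6 CPM in the Ad-TGFb groups. The bleomycin groups did not overlap and the Ad-TGFb groups did. The levels of Ad-TGFb vehicle lungs lay inside the range of bleomycin vehicle lungs, but an offset between the experiments does not drop out of levels. The part of the starting level in the difference was not tested. For Tpx2 the difference was -1.71 ± 0.39 (adjusted p = 0.0192). Top2a, the topoisomerase of dividing cells, had -1.43, the mitotic kinase genes Cdk1, Aurkb and Plk1 had -1.54, -1.55 and -1.27, and cyclin B1 (Ccnb1) had -1.69. Kif23 (-1.02), Cenpe (-1.28), Cenpf (-1.46) and Prc1 (-1.35), of the spindle and kinetochore, completed the 10. The count depended on single libraries: it was 1 without bleomycin vehicle library 3 and 22 without bleomycin vehicle library 1.

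Glycolysis and hypoxia genes had 3 differences below 0 and 1 above among 20. Ldha (-0.59 ± 0.12), lactate dehydrogenase A, Eno1 (-0.63) and Pgk1 (-0.46) were below 0, and Adm (0.97), the vasodilator adrenomedullin, above. Ldha stood at 204, 230.1, 304, 229 and 246 CPM in bleomycin vehicle, 170.1, 124, 139.8, 176 and 152 CPM in bleomycin saracatinib and 135 to 179 and 135 to 159 CPM in the Ad-TGFb groups. Of these 4, Ldha alone stayed called without bleomycin vehicle library 3. In bleomycin lungs 13 of the 20 fell.

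**Figure D3:**
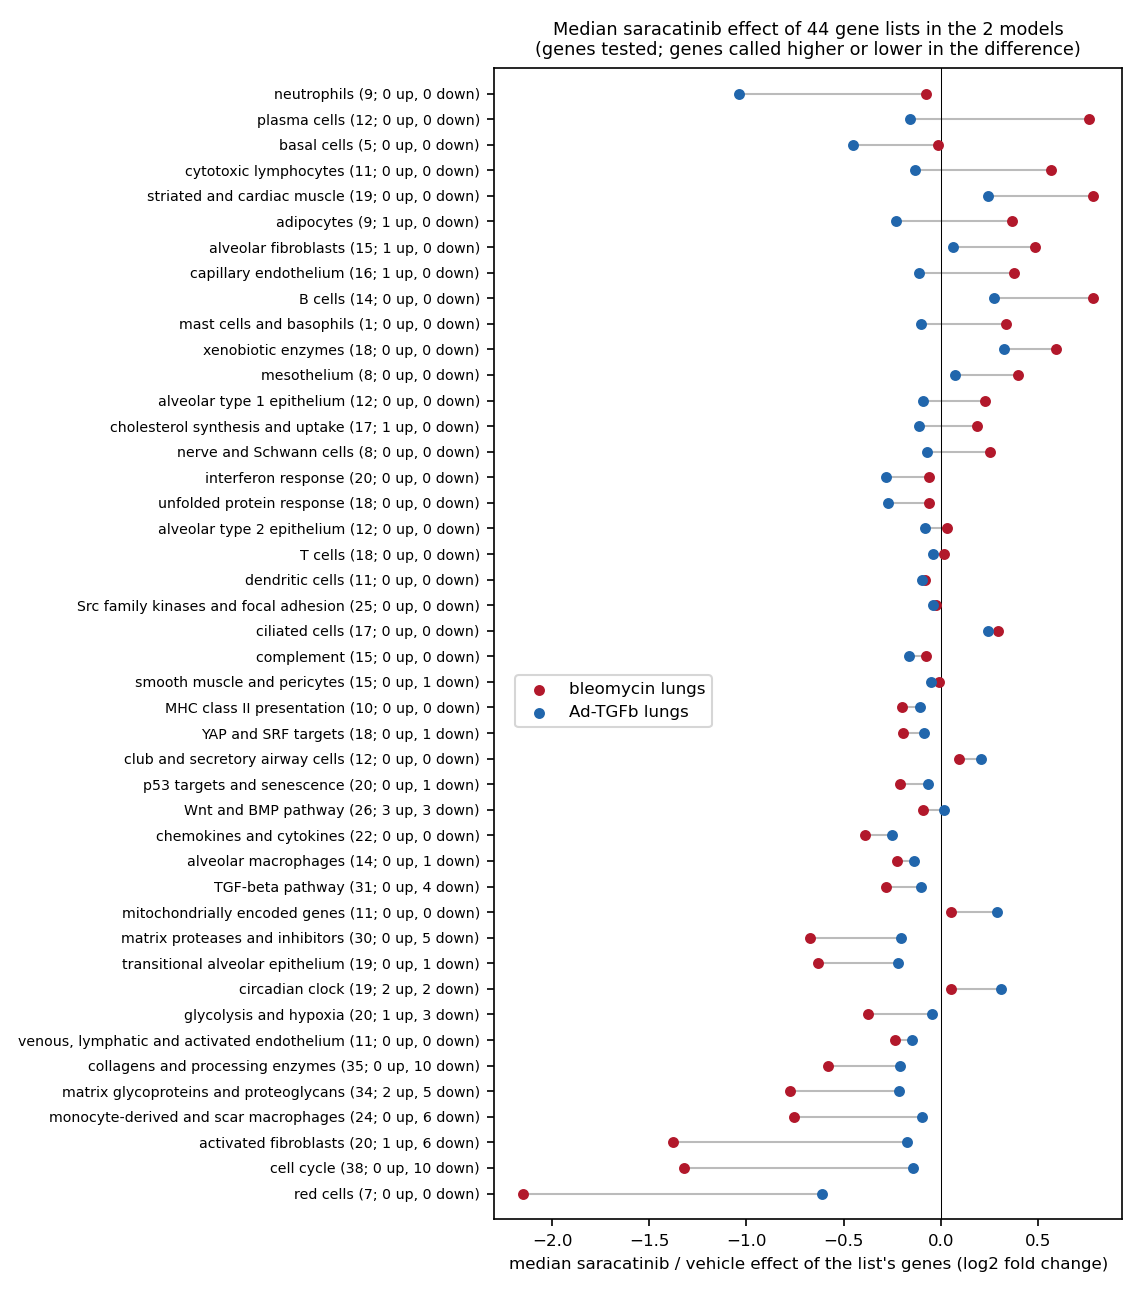
Median saracatinib effect (x axis, log2 fold change over vehicle) of 44 gene lists in bleomycin lungs (red) and Ad-TGFb lungs (blue), sorted by the median difference of their genes. Beside each name stand the genes tested and the number with a called difference up or down; the cell cycle and activated fibroblast medians lie at -1.32 and -1.38 in bleomycin against -0.15 and -0.18 in Ad-TGFb lungs.

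Of the 44 lists, 34 had a called member in bleomycin lungs, 3 in Ad-TGFb lungs, and 19 in the difference, 10 of them more than 1. The lists with 1 called difference beyond those above were adipocytes (Lipe, a hormone-sensitive lipase, 0.74), YAP and SRF targets (Axl, a receptor tyrosine kinase, -0.55), p53 targets (Zmat3, -0.43) and cholesterol synthesis (Srebf2, its master transcription factor, 0.37). None of these 4 stayed called without bleomycin vehicle library 3, with adjusted p = 0.0881, 0.0862, 0.0987 and 0.0721 in that order. Of the 20 fits that each left out 1 injured library, 11, 5, 8 and 10 lost the call. In 25 lists no difference was called, beside a call for 2.46% of all genes tested. Among these, xenobiotic enzymes had 7 of 18 members higher with saracatinib in bleomycin lungs, none called in Ad-TGFb lungs and a median difference of 0.39. B cell markers had 4 of 14 higher in bleomycin lungs and a median difference of 0.53. Of all genes tested, 7.5% rose in bleomycin lungs, beside 38.9% and 28.6% of these 2 lists.

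Markers of blood and of muscle, which a lung sample can carry along, stood beside these results. Red cell genes had a median difference of -1.63, with 7 of 7 tested below 0, none called and 4 lower in bleomycin lungs. Their summed level was 56.7 to 320.2 CPM in bleomycin vehicle and 12.5 to 60.3 CPM in bleomycin saracatinib lungs. In Ad-TGFb lungs it was 154 to 874 CPM with vehicle and 68.8 to 547 CPM with saracatinib. Striated and cardiac muscle genes had 19 of 19 differences above 0, none called, with a median of 0.63. No matched member of either list was at 0 in all 20 injured libraries, and their part in the differences above was not tested.

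**Figure D4:**
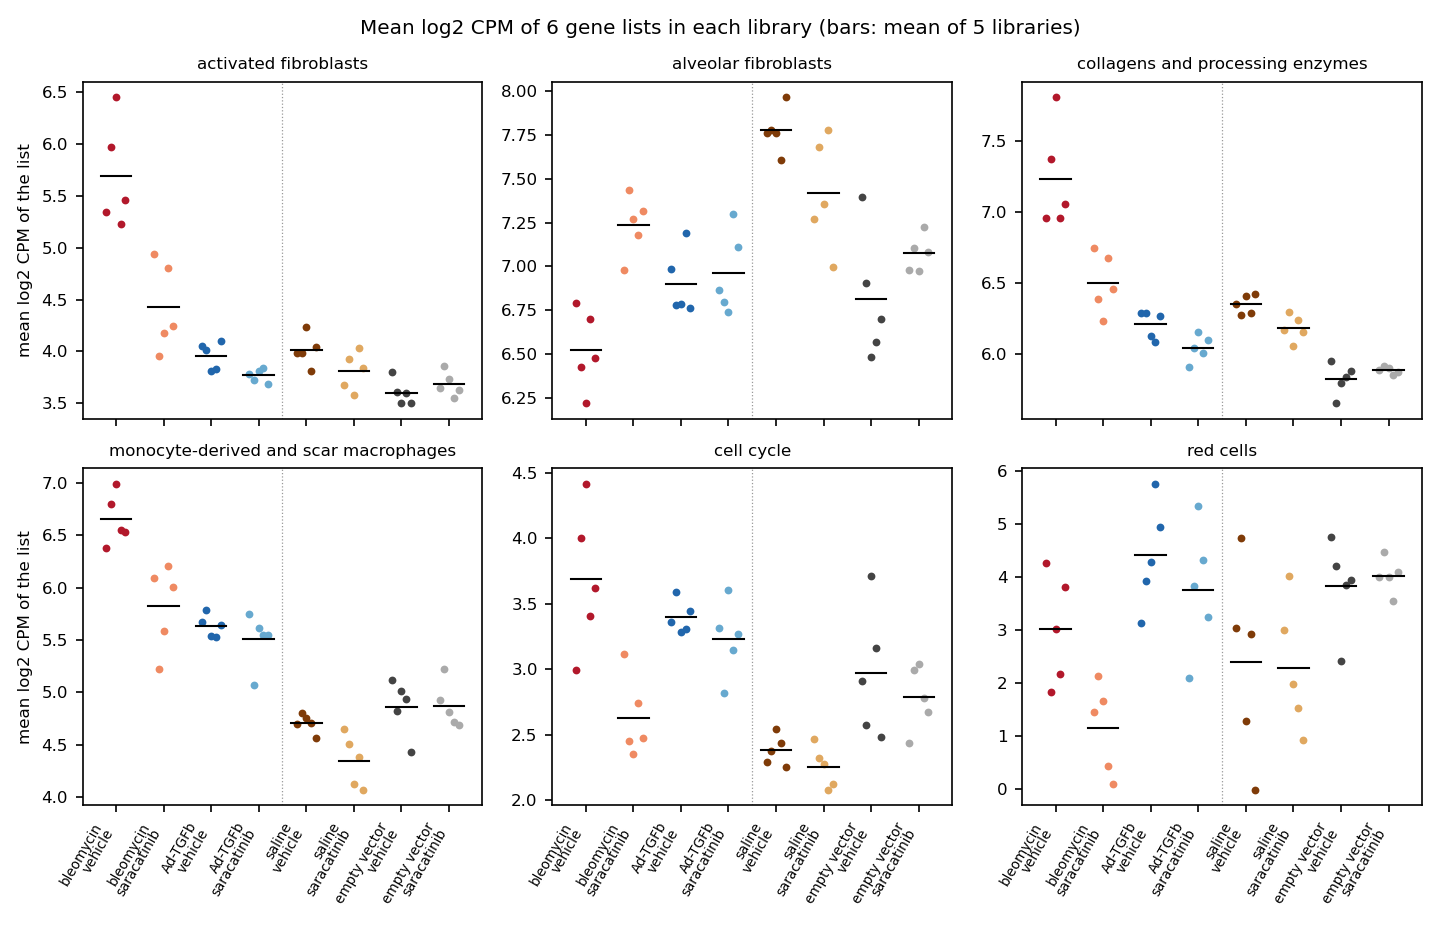
Mean log2 CPM (y axis) of 6 gene lists in each of the 40 libraries; points are libraries, bars are the mean of 5 and the dotted line divides injured from uninjured groups. In the activated fibroblast, collagen, scar macrophage and cell cycle panels the bleomycin vehicle lungs have the highest mean and library 3 of that group the highest point.

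A smaller set of genes had a called saracatinib effect in Ad-TGFb lungs. By DESeq2 the number called there was 31 and by limma voom 232. The 10 genes called there, looked at after their number was known, were Slc6a6, Tef, Hlf, Dbp and Per3 among those that rose and Spon2, Arntl, Ccnjl, Rasl11a and the immunoglobulin segment Ighv5-9-1 among those that fell. The difference was called for Slc6a6, Spon2, Arntl and Ccnjl. Ighv5-9-1 reads can come from close copies of the segment and are not described further.

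Slc6a6 (chr6:91684053-91759066), the taurine transporter, was the gene called in both models, in opposite directions, and had the lowest p of all differences. Bleomycin vehicle lungs had 421, 447, 500.0, 454 and 518 CPM and bleomycin saracatinib lungs 327, 346, 299, 391 and 319.7 CPM. Ad-TGFb vehicle lungs had 304, 292, 289, 293 and 300.3 CPM and Ad-TGFb saracatinib lungs 330.2, 387, 386, 429 and 368 CPM. Neither pair of groups overlapped, and saracatinib lungs were lower in the first model and higher in the second. The effects were -0.48 ± 0.07 (adjusted p = 3.04e-05) and 0.36 ± 0.07 (adjusted p = 0.0266), and the difference -0.84 ± 0.10 (adjusted p = 5.81e-06). The difference stayed called in all 20 fits without 1 library, while the Ad-TGFb list of calls itself shrank to 1 gene without Ad-TGFb saracatinib library 2 or vehicle library 3.

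Spon2 (chr5:33198184-33218455), a secreted matrix protein of fibroblasts that also acts as a pattern recognition molecule, fell in Ad-TGFb lungs. It was at 16.4, 22.7, 29.9, 21.8 and 20.8 CPM with vehicle and 7.57, 9.03, 10.2, 6.03 and 9.83 CPM with saracatinib there, with no overlap. In bleomycin lungs it was at 17.2, 14.6, 19.4, 13.1 and 16 CPM with vehicle and 20.1, 22.5, 29.7, 19.5 and 18.5 CPM with saracatinib, which overlapped. The effects were -1.38 ± 0.19 in Ad-TGFb (adjusted p = 0.00034) and 0.46 ± 0.18 in bleomycin lungs (adjusted p = 0.075), and the difference 1.84 ± 0.26 (adjusted p = 0.000246). In uninjured lungs the drug effect was -0.82 in saline and -0.32 in empty vector lungs. Ccnjl, a cyclin-like gene, had the same pattern, with 3.93 to 7.44 CPM in Ad-TGFb vehicle, 1.76 to 3.17 CPM in Ad-TGFb saracatinib lungs and a difference of 1.77 ± 0.36 (adjusted p = 0.0116).

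Of the 19 genes of the circadian clock list, all tested, 4 rose and 1 fell in Ad-TGFb lungs, and the difference was called above 0 for Arntl and Npas2 and below 0 for Nr1d2 and Bhlhe41. The clock is a loop in which ARNTL, paired with CLOCK or NPAS2, switches on genes through E-box sequences, among them its own repressors and the factors DBP, TEF and HLF. Those factors act through D-box sequences, and REV-ERB proteins such as NR1D2 repress Arntl through ROR elements. Library labels give no time of day, so whether lungs of the groups were taken at like times was not tested. In bleomycin lungs 2 of the 19 rose and 2 fell (21.1%, beside 18.8% of all genes tested called there).

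The promoter windows of 3 clock genes are shown as examples. Per3 and Tef rose with saracatinib in Ad-TGFb lungs, Bhlhe41 had a called difference, and each of the 3 windows holds the letters of a clock motif. They are RefSeq windows on GRCm38.p6, 250 bases before to 50 after the transcript start, written in the direction of transcription with the motif in capitals. The D-box was searched as TTATGTAA or TTACGTAA, the E-box as CACGTG and the ROR core as AGGTCA, each on both strands, and no printed window holds more than 1 kind of motif. Per3 lies on the minus strand at chr4:151044616-151044915, Tef on the plus strand at chr15:81802423-81802722 (1 of its 2 windows) and Bhlhe41 on the minus strand at chr6:145865371-145865670.
Per3, D-box: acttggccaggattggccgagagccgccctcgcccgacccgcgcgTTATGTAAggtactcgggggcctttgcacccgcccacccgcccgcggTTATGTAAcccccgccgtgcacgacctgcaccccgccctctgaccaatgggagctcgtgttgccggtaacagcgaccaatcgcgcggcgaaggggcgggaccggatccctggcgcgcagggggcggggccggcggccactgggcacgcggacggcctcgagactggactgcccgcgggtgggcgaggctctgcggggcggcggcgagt
Tef, E-box: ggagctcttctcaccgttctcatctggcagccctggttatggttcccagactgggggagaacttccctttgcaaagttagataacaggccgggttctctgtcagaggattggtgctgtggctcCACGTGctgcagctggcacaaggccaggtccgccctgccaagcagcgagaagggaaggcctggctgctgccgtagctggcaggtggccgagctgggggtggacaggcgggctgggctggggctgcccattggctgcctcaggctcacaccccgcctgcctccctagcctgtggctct
Bhlhe41, E-box: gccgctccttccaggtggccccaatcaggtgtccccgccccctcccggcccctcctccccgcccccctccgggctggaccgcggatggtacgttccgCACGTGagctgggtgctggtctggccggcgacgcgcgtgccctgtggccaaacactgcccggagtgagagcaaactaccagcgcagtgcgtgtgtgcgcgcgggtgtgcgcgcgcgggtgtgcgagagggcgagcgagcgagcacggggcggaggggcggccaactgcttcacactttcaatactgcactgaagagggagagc
The Per3 matches begin 205 and 158 bases before the start, the Tef match 127 and the Bhlhe41 match 153. A D-box occurred in 1.06% of all 32851 windows, an E-box in 7.15% and a ROR core in 16.3%. Among the clock list, 16 of 19 genes had a window, 21 windows in all. A D-box was in 1 of the 21 windows (1 gene), an E-box in 6 (5 genes) and a ROR core in 5 (5 genes). Arntl and Nr1d2, which also had a called difference, are among the genes with a ROR core and are not printed. A match is a string of letters and not a shown binding site.

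Arntl (chr7:113207465-113314126) was at 56.2, 35, 33.3, 45.2 and 58.1 CPM in bleomycin vehicle and 59.1, 50.7, 69.2, 48.1 and 49.5 CPM in bleomycin saracatinib lungs. In Ad-TGFb lungs it was at 29.3, 37.9, 44.5, 44.8 and 39.5 CPM with vehicle and 24.9, 16.4, 22.1, 13.6 and 19.6 CPM with saracatinib. The Ad-TGFb groups did not overlap and the bleomycin groups did. The effects were -1.02 ± 0.17 (adjusted p = 0.00759) and 0.28 ± 0.16 (adjusted p = 0.241), a difference of 1.30 ± 0.24 (adjusted p = 0.00669). Npas2 (chr1:39193731-39363236), which can stand in for CLOCK as the partner of ARNTL, was at 6.93, 10.4, 17, 15.8 and 13.8 CPM in Ad-TGFb vehicle and 6.07, 3.75, 7.04, 4.12 and 4.87 CPM in Ad-TGFb saracatinib lungs, and at 19, 8.91, 7.47, 14.1 and 21.7 and 27.7, 15.6, 27.1, 18.8 and 21.2 CPM in the bleomycin groups. Its effect was -1.29 in Ad-TGFb and 0.63 in bleomycin lungs, neither called, and the difference 1.93 ± 0.37 was (adjusted p = 0.0102).

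The output genes lay on the other side. Tef (chr15:81802421-81826863), whose window is printed above, was at 165, 138, 149.8, 148 and 149 CPM in Ad-TGFb vehicle and 263, 305, 259.8, 315 and 284 CPM in Ad-TGFb saracatinib lungs, without overlap. In bleomycin lungs it ran from 135 to 196 CPM with vehicle and from 148 to 248 CPM with saracatinib. The Ad-TGFb effect was 0.93 (adjusted p = 0.0147), while the difference of -0.69 was not called (adjusted p = 0.101, interval from -1.16 to -0.22). Dbp (chr7:45705088-45710203) was at 39.1, 25.6, 17, 21.6 and 22.8 CPM with vehicle and 62.5, 106, 92.8, 129 and 87.7 CPM with saracatinib in Ad-TGFb lungs and spread over 11.2 to 31.7 and 5.56 to 37.9 CPM in bleomycin lungs. Its effect of 1.92 ± 0.39 in Ad-TGFb lungs was called (adjusted p = 0.0386) and its difference of -1.80 ± 0.55 was not (adjusted p = 0.0669). Per3, a period gene with both D-box matches, rose by 1.07 and Hlf by 1.01, with uncalled differences of -0.86 (interval from -1.48 to -0.24) and -0.71 (interval from -1.28 to -0.14). Nr1d2 was at 91.4 to 148 CPM with vehicle and 163 to 230.3 CPM with saracatinib in Ad-TGFb lungs, an effect of 0.79 just short of the threshold (adjusted p = 0.0529) with a difference of -0.93. That difference lost its call in 5 of 20 fits without 1 library, among them the fit without bleomycin vehicle library 3 (adjusted p = 0.083). Bhlhe41 had 19.3 to 25.9 and 35.4 to 52.2 CPM there and a difference of -0.96, lost in 10 of 20 fits without 1 library.

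Uninjured lungs had Arntl, Npas2, Dbp and Tef on the same side as Ad-TGFb lungs. The saracatinib effect in saline and in empty vector lungs was -0.41 and -0.64 for Arntl, -0.67 and -1.22 for Npas2, 1.57 and 1.10 for Dbp, and 0.46 and 0.43 for Tef. In bleomycin lungs the effects were 0.28, 0.63, 0.11 and 0.24 in the same order, none of them called. Those of Dbp and Tef were thus above 0 there too, and only Arntl and Npas2 were on the other side. Bhlhe41 overlapped in saline lungs, at 13.5 to 18.0 CPM with vehicle and 11.0 to 22.8 CPM with saracatinib. This view was chosen after its values were seen and was not tested.

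**Figure D5:**
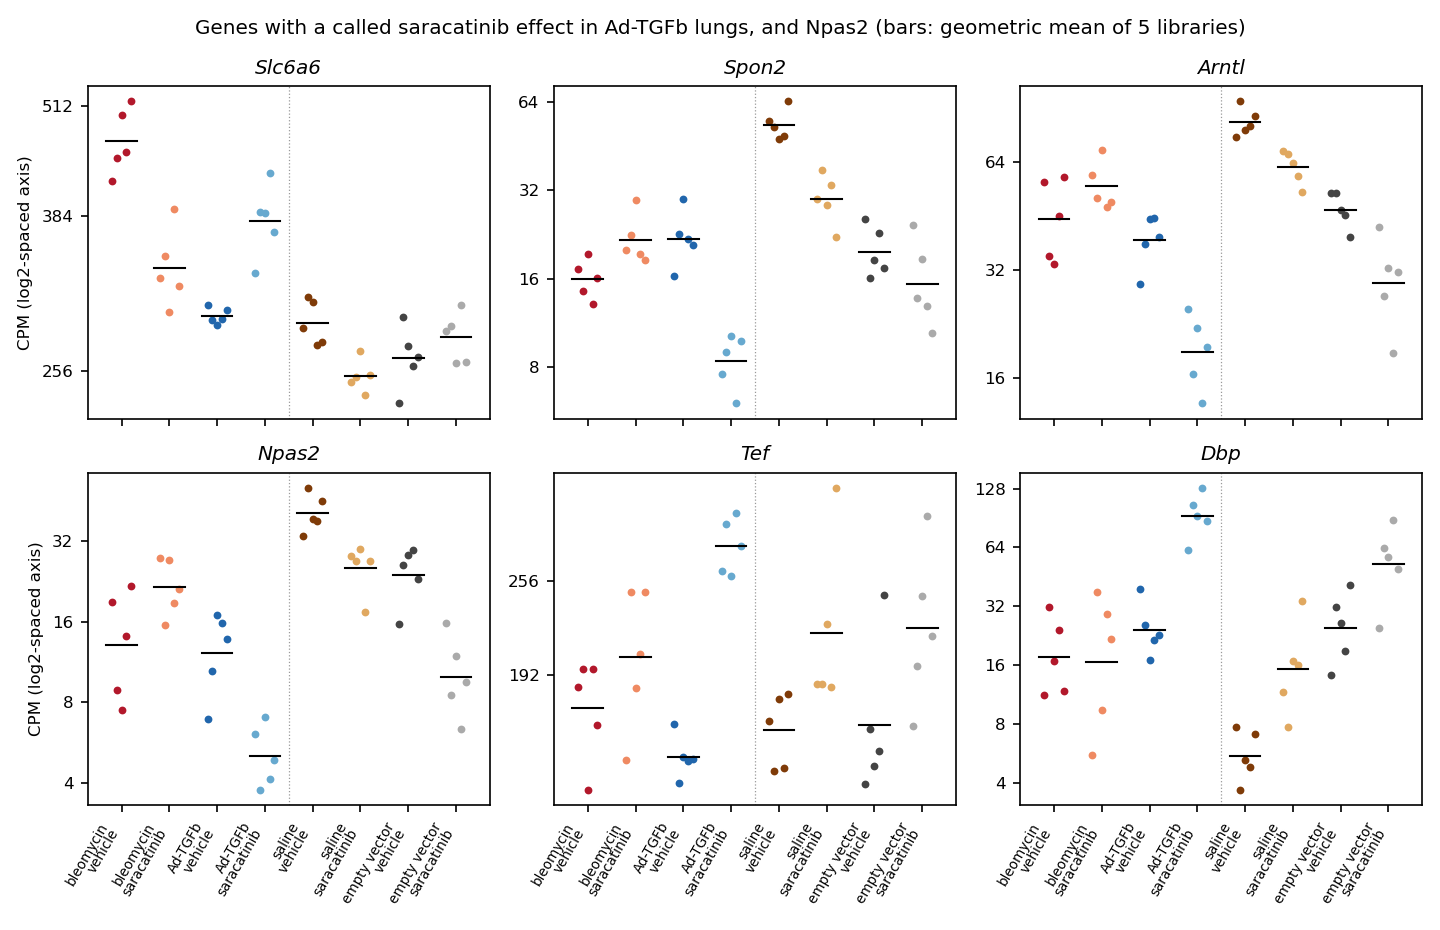
CPM of 6 genes in each of the 40 libraries (log2-spaced y axis, points are libraries, bars are geometric means of 5, and the dotted line divides injured from uninjured groups). In the Ad-TGFb columns saracatinib lungs lie above vehicle lungs for Slc6a6, Tef and Dbp and below them for Spon2 and Arntl with no overlap, and Npas2 overlaps by 1 library.

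Genes of other roles completed the largest differences below 0. Rcvrn, the calcium sensor recoverin, had 1.35, 1.89, 3.54, 1.26 and 1.28 CPM in bleomycin vehicle, 0.47, 0.298, 0.158, 0.472 and 0.566 CPM in bleomycin saracatinib, 0.518 to 0.768 CPM in Ad-TGFb vehicle and 0.764 to 2.02 CPM in Ad-TGFb saracatinib lungs, a difference of -3.33 ± 0.56 (adjusted p = 0.00443). The fatty acid activating enzyme Acsl6 (-3.13), the sodium-activated potassium channel Kcnt1 (-2.67), the transcription factor Etv4 (-2.41), the glycosyltransferase Gcnt4 (-2.29) and Bean1 (-2.22) completed the 12 largest below 0. Over the 2 Ad-TGFb groups Acsl6 ran from 0.175 to 0.737, Kcnt1 from 0.171 to 0.737 and Etv4 from 0.0966 to 1.31 CPM. Gcnt4 ran from 0.162 to 0.792 and Bean1 from 0.193 to 0.769 CPM there. Their differences thus rest on low counts. Acsl6 lost its call in 1, Kcnt1 in 4, Etv4 in 12, and Gcnt4 and Bean1 in 13 each, of the 20 fits without 1 library. The single fit that lost Acsl6 left out bleomycin vehicle library 3 (adjusted p = 0.0509), and Kcnt1 was lost there too (adjusted p = 0.0597).

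As a control, the same comparison was made in the uninjured lungs of the 2 experiments, which met the same drug. The saracatinib effect in saline lungs differed from that in empty vector lungs for 6 genes (0.0307%), 1 above 0 (0.00512%) and 5 below (0.0256%). None of the 6 was among the 481, which says little, as the 481 are 2.46% of all genes tested. They were Bcl6b (1.91), an endothelial repressor, and Bcas3os1 (-1.73), Adamtsl2 (-1.47), Tmem119 (-1.14), Rnf170 (-0.44) and Lpgat1 (-0.40). By unadjusted p under 0.05 there were 2727 genes, against 3198 in injured lungs. For the 481 genes the median absolute difference was 0.83 in injured and 0.19 in uninjured lungs, where the first value chose the genes. List medians of the uninjured difference were -0.40 for activated fibroblasts, -0.28 for collagens and -0.39 for matrix glycoproteins. They were -0.19 for proteases, -0.14 for TGF-beta and -0.28 for scar macrophages. Injured medians were -1.09, -0.43, -0.52, -0.28, -0.19 and -0.72 in that order. Uninjured medians took the other sign for cell cycle (0.11), glycolysis (0.06), transitional epithelium (0.32), alveolar fibroblasts (-0.42) and capillary endothelium (-0.05). None was tested.

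Subtracting the uninjured difference from the injured one gave the difference net of what saracatinib did in uninjured lungs. It was called for 130 genes (0.666%), 72 above 0 (0.369%) and 58 below (0.297%). Of these, 82 were also among the 481, which is 63.1% of the 130 and 17.0% of the 481, and the 2 sets share their injured libraries. All 481 kept their sign net of uninjured lungs. The net value contains the injured difference that chose these genes, so the kept sign is no separate support. Net values were called for Cthrc1 (-2.27, adjusted p = 0.0306), Slc7a10 (3.44, 0.00636), Spon2 (2.35, 0.00412), Slc6a6 (-0.56, 0.0404), Cldn4 (-3.49, 0.0182), Retnla (-3.13, 0.0282), Inhba (-2.76, 0.0394) and Cdk1 (-2.39, 0.0369). They were not called for Col1a1 (-1.09, interval from -1.84 to -0.35), Thbs2 (-1.91, from -3.48 to -0.34), Fst (-2.43, from -3.84 to -1.01), Tpx2 (-1.98, from -3.13 to -0.83) or Arntl (1.08, from 0.41 to 1.75). The 3-way contrast carries the spread of 8 groups, and its intervals are wider. Leaving out empty vector vehicle library 1 moved the uninjured count from 6 to 248 and the net count from 130 to 526.

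The injury itself, vehicle lungs against uninjured vehicle lungs of the same experiment, is given beside these results without a test between models. In vehicle lungs, Cthrc1, Thbs2, Inhba, Cldn4 and Retnla were 2.80, 3.30, 2.52, 2.84 and 2.42 above the uninjured level in bleomycin, and -0.04, -0.04, -0.31, -0.98 and -1.16 from it in Ad-TGFb lungs, all in log2. Fn1 (2.29 and 0.94), Timp1 (3.22 and 0.93), Igf1 (2.04 and 1.32), P4ha3 (2.58 and 1.70) and Mmp12 (4.45 and 2.25) were above it in both. These injury values use the same vehicle libraries as the saracatinib effects and so are not independent of them. The part of the injury's size in the difference was not tested.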

How the data were processed

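RNA was measured in 40 mouse lung libraries, rRNA-depleted and stranded per the labels' protocols. The deposited values used are whole-number counts per gene, 1 table per model with 55536 genes each, as the authors left them. Per the submitters' processing notes the tools include STAR 2.6.1d, Picard, Subread 1.6.3, featureCounts and edgeR. The notes name mm9 and GRCm38, and gene IDs were matched to GENCODE M21 on GRCm38. The sources used here give no strand setting for the counting, so overlapping antisense genes cannot be told apart.

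Both tables were joined on gene ID. In R 4.3.3, edgeR 4.0.16 filtered genes by group (filterByExpr), scaled by TMM and fitted 8 group coefficients to all 40 libraries, with quasi-likelihood tests and Benjamini-Hochberg adjustment over 19529 genes. Library totals were 8812233 to 17336972 counts. Titles carry a number per library that no label explains, and no label states that each library is 1 mouse, so p-values measure the spread between these samples, which may be technical. On simulated data, 40% of genes changed 1.5-fold and 68% of genes changed 2-fold were recovered in the difference, with 10 false calls.

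Genes were named by rule: a panel of 18, the 12 largest called differences each way with a mean of at least 1 CPM, genes called in both models, and up to 4 called or 2 uncalled members of each of 44 lists, of which the text gives a part. The result of 1 gene of the panel is not reported here. Other genes are said to be chosen after their values were seen or belong to a count given in full. The members and lists were chosen with earlier results of these data known. Alternatives were DESeq2 1.42.0 (size factors or test), limma 3.58.1 voom, no filter, fewer groups and leaving out libraries. Removing the farthest library of each injured group and fitting each model alone were chosen after seeing the data.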

Additional observations from a re-analysis of the deposited data

Results flagged for a closer look

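The saracatinib effect differed between the models by the test of the difference itself for 481 genes. Among the genes of matrix and fibroblasts, the log2 difference was -2.58 for Cthrc1, -2.52 for Thbs2, -2.22 for Fst, -2.01 for Inhba and -1.24 for Col1a1. It was -2.45 for Arg1, -2.16 for Retnla, -2.25 for Cldn4, -1.43 for Top2a and -0.84 for Slc6a6. It was -3.33 for Rcvrn, -3.13 for Acsl6, -2.67 for Kcnt1, -2.41 for Etv4, -2.29 for Gcnt4 and -2.22 for Bean1. Above 0 it was 2.35 for Slc7a10, 2.22 for Colq, 2.00 for Lrat, 1.93 for Npas2, 1.91 for Slc5a12 and 1.84 for Spon2. It was 1.78 for Tmem121b, 1.77 for Ccnjl, 1.73 for Adamts17, 1.72 for Fam71f2, 1.67 for Gabrb1 and 1.64 for Kcna2.

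Single libraries stood far from the other 4 of their group in 19 of 316 groups of values looked at. For independent, normally distributed values chance gives about 1 in 20. The 316 groups share the same 20 libraries and CPM need not be normal, so that rate cannot judge this count. Bleomycin vehicle library 3 accounted for 9 of the 19. It held 78.2 CPM of Fst, 127.7 of Fbln2, 18.4 of Has2, 225.5 of Pmepa1, 126.4 of Tgfb1, 14.8 of Aurkb, 72.3 of Plet1 and 3.54 of Rcvrn, all above the rest of its group, and 16.0 of Bhlhe41, below it. Ad-TGFb vehicle library 4 was high for Bmp6 (146.6 CPM), Colq (24.0 CPM) and Slc7a10 (33.5 CPM). Ad-TGFb saracatinib library 4 stood apart for Bhlhe41 (52.2 CPM) and Plet1 (54.2 CPM), library 2 for Sftpc (2293 CPM), and library 3 for Cdk1 (9.74 CPM). Bleomycin saracatinib library 1 stood apart for Cdk1 (5.88 CPM), and Ad-TGFb vehicle library 2 for Bean1 (0.668 CPM). Bleomycin saracatinib library 2 had the highest total of its group, 13.9 M (13926500 counts).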

How the results depend on the processing

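Counts of called genes depended on the tool and on single libraries. The difference, called for 481 genes, was called for 219 with no low-count filter, 747 by DESeq2, 187 without the farthest library of each injured group, and 106 to 803 when 1 library was left out. With only the 4 injured groups fitted it was called for 377 genes, of which 258 were among the 481. The bleomycin effect (3662) was called for 2020 with only its own groups fitted, 2341 without the farthest libraries and 1883 to 3981 with 1 left out. The Ad-TGFb effect (10) was called for 31 by DESeq2, 232 by limma voom, 20 with only its own groups, 17 with its model's 4 groups and 1 to 12 with 1 left out. The uninjured difference (6) was called for 73 by DESeq2, 490 by limma voom, 1 with only its groups and 3 to 248 with 1 left out. The net difference (130) was called for 77 with no filter, 322 by DESeq2, 767 by limma voom and 61 to 526 with 1 left out. The causes were not tested. Of 62 named genes with a called difference, 23 stayed called in every fit without 1 library and 25 in every other setting, and none changed sign. Uncalled differences that changed sign were those of Acta2 (0.16 by limma voom, 0.12 without the farthest libraries), Sftpc (-0.0168 without them) and Mmp12, from -0.0652 to 0.302 with 1 library left out. Replicate numbers were given in accession order. No paired analysis was possible because no groups compared share more than 1 of the numbers in the titles.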
